A study of Mus musculus with 15 samples.

Results

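Aquaporins are membrane channels for water, and some of them also carry glycerol. The 8 genes described here, Aqp1, Aqp3, Aqp4, Aqp5, Aqp7, Aqp8, Aqp9 and Aqp11, were chosen by symbol among the 50600 genes of the deposited tables. Levels were compared over 5 kinds of sorted mouse epithelium, to name the main water or glycerol channel of each. The tables hold 4 other aquaporin genes, Mip, Aqp2, Aqp6 and Aqp12, which were used in sums over the family.

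An aquaporin folds around a narrow pore, at whose middle a pair of short loops meet, each carrying the residues asparagine, proline and alanine or a variant of them. Aqp1, Aqp4 and Aqp5 are classical water channels, and Aqp8 passes water and hydrogen peroxide. Aqp3, Aqp7 and Aqp9 are aquaglyceroporins, which pass glycerol as well as water. Aqp11 belongs to a divergent branch of the family and is found on membranes inside the cell.

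The cells came from male C57BL/6J mice aged 8 weeks, without a treatment or allele named in the labels, and were sorted by flow cytometry. Epithelium of the thymus gave a cortical group (cTEC) and a medullary group (mTEC), and colon, lung and skin gave 1 group each, all with 3 libraries. Each library came from a pool of cells of 5 mice, so that n = 3 pools in every group and p-values measure the spread between these pools. The series was designed to look at differences in MHC class I between epithelia, and aquaporins were not its subject. RNA with poly(A) tails was sequenced after library preparation with the KAPA RNA Stranded PolyA kit for cTEC, mTEC and skin and with the KAPA RNA HyperPrep PolyA kit for colon and lung. Kit and tissue cannot be told apart in the 6 pairs of a colon or lung group with a cTEC, mTEC or skin group, and 4 pairs lie within a kit. The sorting gates are not given in the sources used here.

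Reads on the sense strand of genes numbered 12946533 to 41978665 per library, the highest being in lung. Skin replicate 1 stood apart from the other libraries, with 46.9% of its reads outside single genes against 24.2% to 36.1% elsewhere, and with 8.43 sense reads per opposite-strand read against 13.0 to 19.3 elsewhere. Results on skin are therefore also given without it where it matters. Summed alveolar type 1 markers reached at least 30771 CPM (gene reads per library total, after TMM scaling) in lung and at most 1029 CPM elsewhere, and goblet cell markers 13466 CPM or more in colon and at most 7109 CPM elsewhere. That last sum, in mTEC replicate 3, was nearly all Fcgbp (7079 CPM), while Muc2 stood at 3.95 CPM there. Suprabasal keratinocyte markers reached 16162 CPM or more in skin and at most 229 CPM elsewhere, and cortical thymic markers summed to 7105 to 15339 CPM in cTEC and 2206 to 2664 CPM in mTEC. Medullary markers, which include the keratins Krt5 and Krt14, stood at 6950 to 8984 CPM in mTEC, 2252 to 4389 CPM in cTEC and, through those keratins, 12979 to 28641 CPM in skin.

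The coding sequences show which members belong to the glycerol branch. Below are the stretches around the second pore box, read from GENCODE M21 transcripts on GRCm38 and written 5′ to 3′ on the coding strand, 33 bases each. Capitals mark the 3 codons of the box and the second codon after it. In aquaglyceroporins that later codon stands for a conserved aspartate.
Aqp1: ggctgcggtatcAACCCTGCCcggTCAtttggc
Aqp5: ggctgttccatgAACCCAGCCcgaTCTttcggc
Aqp8: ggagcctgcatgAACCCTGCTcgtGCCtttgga
Aqp11: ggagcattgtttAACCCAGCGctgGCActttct
Aqp3: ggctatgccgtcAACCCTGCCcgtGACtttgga
Aqp7: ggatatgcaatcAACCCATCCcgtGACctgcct
Aqp9: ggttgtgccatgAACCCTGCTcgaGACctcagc

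The codon was GAC in the 3 glycerol channels Aqp3, Aqp7 and Aqp9 and another codon in the 4 other genes shown. These stretches lie in single coding exons at chr6:55345825-55345857 (Aqp1, plus strand), chr15:99593258-99593290 (Aqp5, plus), chr7:123466599-123466631 (Aqp8, plus), chr7:97729041-97729073 (Aqp11, minus), chr4:41093829-41093861 (Aqp3, minus), chr4:41034801-41034833 (Aqp7, minus) and chr9:71122838-71122870 (Aqp9, minus). Of the 14 boxes in these 7 genes, 11 had the form AANCCNGCN. The 3 others were the second box of Aqp7, above, and the first boxes of Aqp7 and Aqp11, shown here beside that of Aqp5 with the box in capitals.
Aqp5: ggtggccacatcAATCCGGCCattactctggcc
Aqp7: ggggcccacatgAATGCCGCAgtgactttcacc
Aqp11: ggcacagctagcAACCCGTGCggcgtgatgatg

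The first boxes of Aqp5 and Aqp11 lie at chr15:99591464-99591496 (plus strand) and chr7:97737673-97737705 (minus strand), and that of Aqp7 is split by an intron within chr4:41035599-41036014 (minus strand). All 8 members are protein-coding genes. On GRCm38, Aqp1 (ENSMUSG00000004655.5) spans chr6:55336432-55348555, Aqp5 (ENSMUSG00000044217.16) chr15:99590782-99594829, Aqp8 (ENSMUSG00000030762.11) chr7:123462291-123468004 and Aqp11 (ENSMUSG00000042797.9) chr7:97724006-97738289. The glycerol channels Aqp3 (ENSMUSG00000028435.8) and Aqp7 (ENSMUSG00000028427.13) are neighbours at chr4:41092722-41098183 and chr4:41033074-41048139, and Aqp9 (ENSMUSG00000032204.13) spans chr9:71110659-71168682. Aqp4 (ENSMUSG00000024411.9) lies on chromosome 18, where an antisense gene overlaps it, and its sequence is not shown. Aqp9 is overlapped on the other strand by a pseudogene and an antisense gene.

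Each epithelium was led by 1 channel, and the same gene led in all 3 libraries of its group. Aqp3 led in cTEC, mTEC and skin, Aqp4 in colon and Aqp5 in lung. Levels of different genes were compared in TPM (RSEM's measure of transcripts, which accounts for their length), as a share of the summed TPM of all 12 aquaporin genes in the library. Skin and lung were the most one-sided, with Aqp3 at 87.0% ± 9.04 (SD, n = 3) of aquaporin transcripts in skin and Aqp5 at 92.3% ± 3.83 in lung. Aqp4 held 58.1% ± 2.62 in colon, with Aqp1 the second at 26.3% ± 3.06. Aqp3 held 48.5% ± 10.2 in cTEC, followed by Aqp4 at 18.6% ± 3.15, and 53.8% ± 2.44 in mTEC, followed by Aqp5 at 12.5% ± 4.45. The order of these 3 groups turned with the length used: per kilobase of merged exons, the leading share was 58.6% in cTEC, 59.8% in mTEC and 57.2% in colon. The second place in TPM was not stable in thymic epithelium, since Aqp11 was above Aqp4 in cTEC replicates 2 and 3 and Aqp1 above Aqp5 in mTEC replicate 1. Per kilobase of merged exons, Aqp11 was below Aqp4 in every cTEC library.

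The family total also differed. Aquaporin transcripts summed to 44.9 ± 12.6 TPM in cTEC, 60.8 ± 16.4 in mTEC, 213 ± 30.2 in colon, 346 ± 116 in skin and 1808 ± 89.5 in lung. The glycerol channels Aqp3, Aqp7 and Aqp9 together made up 88.1% ± 9.29 of the total in skin. In mTEC their share was 58.5% ± 2.31 and in cTEC 49.3% ± 10.3, while lung had 4.69% ± 4.35 and colon 0.35% ± 0.33. Lung had 2.40% without replicate 1, and colon 0.16% without replicate 2. The main channel was thus a glycerol channel in 3 groups and a water channel in colon and lung. Without skin replicate 1 the share of Aqp3 in skin was 92.2%. In these bulk libraries, fewer cells of a type and less RNA per cell cannot be told apart.

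**Figure D1:**
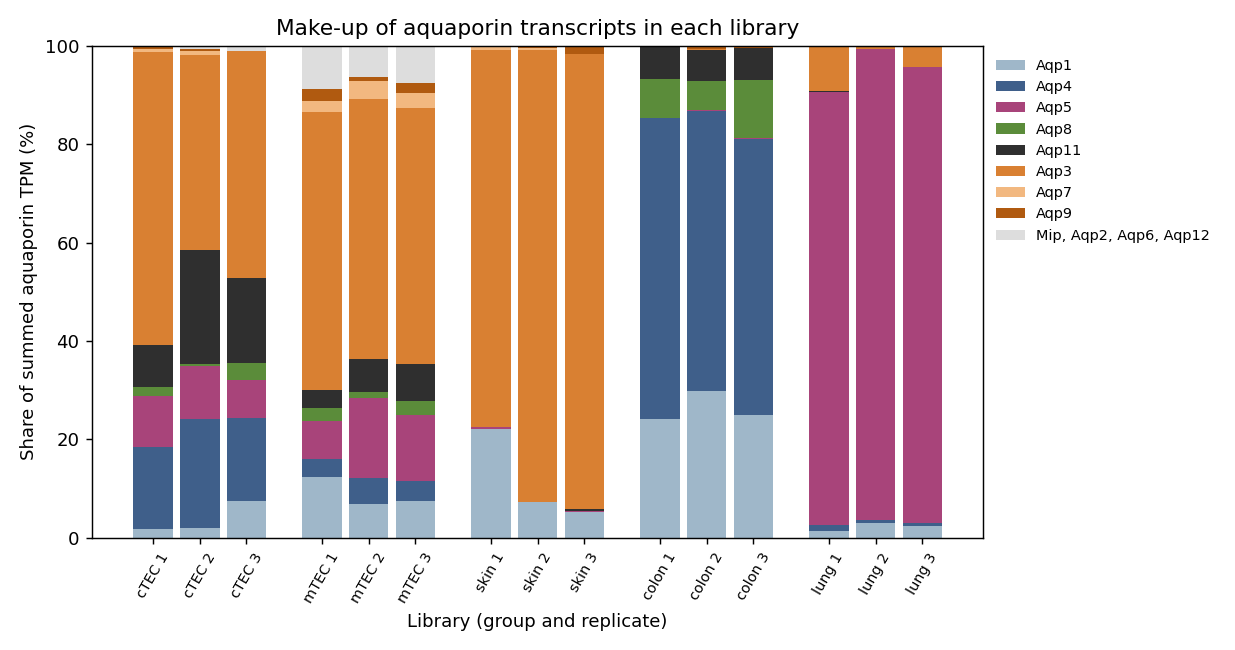
Share of each aquaporin in the summed TPM of the 12 aquaporin genes (vertical axis, percent) for each of the 15 libraries (horizontal axis, by group and replicate). Aqp3 takes the largest segment in all cTEC, mTEC and skin libraries, Aqp4 in all colon libraries and Aqp5 in all lung libraries, and the 4 genes outside the member list are visible in mTEC.

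**Figure D2:**
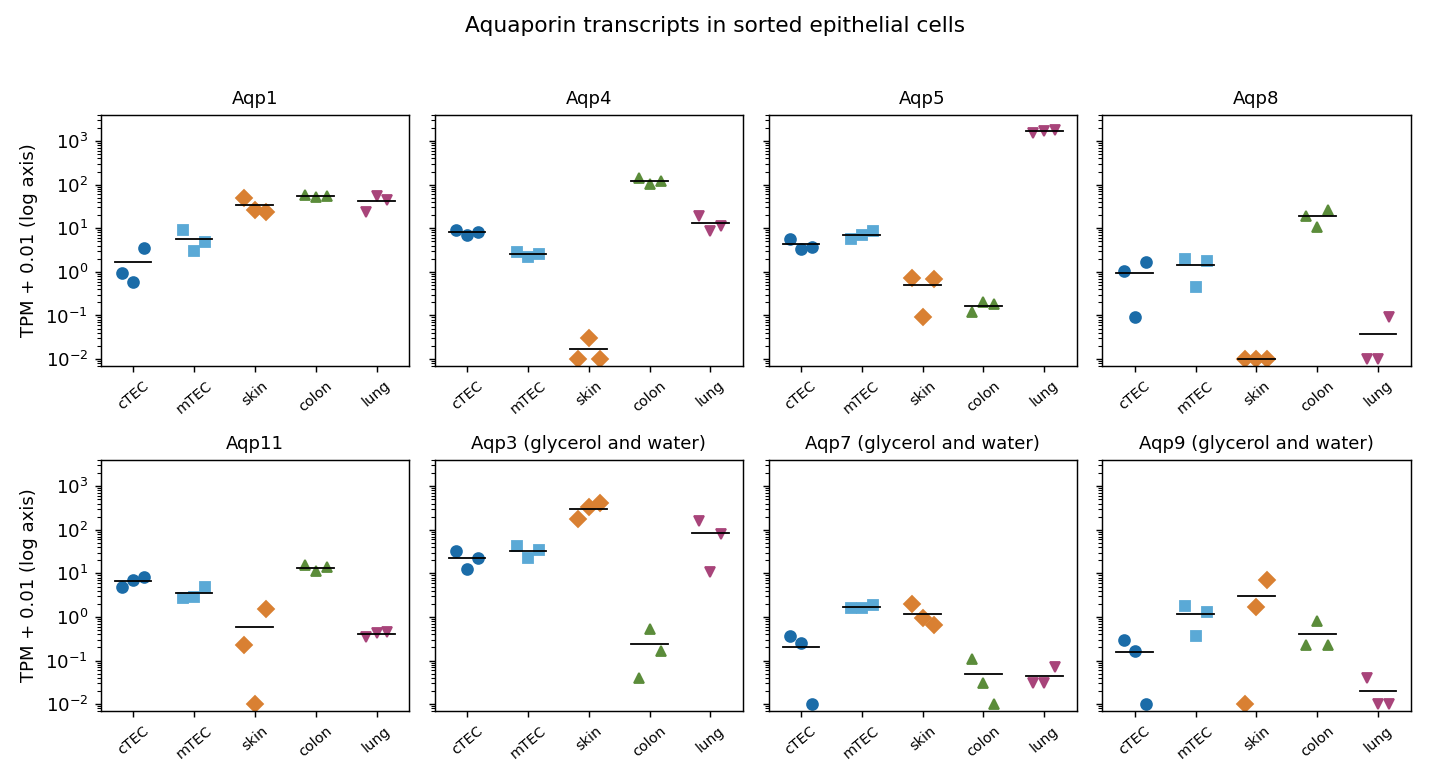
TPM of the 8 members by group, 1 panel per gene, with 1 point per library and a bar at the group mean, on a log axis after adding 0.01 so that values of 0 can be drawn. Aqp5 in lung reaches 1764 TPM, while Aqp7 and Aqp9 stay under 10 TPM in every library.

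All 8 members differed among the 5 groups in the edgeR quasi-likelihood F-test at an adjusted p under 0.05, as did 90.6% of all 19107 genes tested, so this count is close to the background. The largest adjusted p among the 8 was 0.00171, for Aqp9. The members are described below by role, first the water channels and then the glycerol channels.

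Aqp5, the apical water channel of alveolar type 1 cells and of secretory glands, was a lung gene in these data. Its levels in lung replicates 1 to 3 were 1519.35, 1725.28 and 1764.02 TPM. The mTEC libraries had 5.75, 7.01 and 8.74 TPM and the cTEC libraries 5.71, 3.35 and 3.74. Skin had 0.70, 0.08 and 0.66 TPM and colon 0.11, 0.19 and 0.17. The 3 lung libraries lay far above all others and close to one another, cTEC and mTEC came next, and skin and colon overlapped at the bottom.

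The level of Aqp5 in lung was 1836 ± 151 CPM (SD, n = 3) and 6.54 ± 1.39 CPM in mTEC, the next group, a log2 fold change of 8.13 ± 0.35 (SE, adjusted p = 2.58e-10). Against colon, within the same kit, lung was higher by 13.04 ± 0.45 on the log2 scale (adjusted p = 3.93e-11), from 182366 reads against 16 over the 3 libraries. The levels in cTEC and mTEC did not pass the test against each other (log2 fold change 0.80 ± 0.28 higher in mTEC, adjusted p = 0.0533). That comparison passed without cTEC replicate 1 (adjusted p = 0.0438) and without skin replicate 1, 2 or 3 (adjusted p = 0.0402, 0.0142 and 0.0353), which all share the estimate of spread. It also passed without a filter on low counts (adjusted p = 0.0242), with the DESeq2 test (0.00319), with DESeq2 size factors (0.0407), with limma on log2(TPM + 1) (0.0474), after scaling to the upper quartile (0.0469) and when 1 CPM was required in 3 libraries (0.0499). Those were the 10 alternatives in which Aqp5 passed between mTEC and cTEC, and in 20 others it did not pass. The latter include fits with the replicate number as a block. Over all libraries that fit gave an adjusted p of 0.0725, and over the thymic libraries alone 0.0735. Both thymic groups were above skin, cTEC by 2.71 ± 0.39 on the log2 scale (adjusted p = 4.36e-05). The difference of colon from skin, fitted at -1.40 ± 0.55 (adjusted p = 0.0399), rested on 16 and 22 reads. It was lost when any of 8 libraries was left out: each colon library, skin replicate 1 or 3, cTEC replicate 2, mTEC replicate 2 or lung replicate 2 (adjusted p from 0.051 to 0.204).

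Aqp4, a water channel best known from astrocytes and found on the basolateral side of several epithelia, was the main channel of colon. Its levels in colon replicates 1 to 3 were 145.95, 102.32 and 123.88 TPM. Lung followed with 19.23, 8.67 and 11.38 TPM, cTEC had 9.31, 6.90 and 8.13, and mTEC 2.83, 2.21 and 2.57. Skin had 0, 0.02 and 0 TPM, which was 1 read over 3 libraries. The 3 colon libraries were above every other library and skin was below all, while lung replicate 2 fell between cTEC libraries on this scale.

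In CPM, Aqp4 stood at 554 ± 115 in colon and 49.6 ± 22.2 in lung, a log2 fold change of -3.48 ± 0.28 for lung over colon (adjusted p = 9.15e-08). Lung was above cTEC by 1.01 ± 0.26 (adjusted p = 0.00429), a call that was lost in a test against a 2-fold change (adjusted p = 0.468) and in the 3 limma fits on log2 TPM (adjusted p from 0.0648 to 0.0899). Further, cTEC was above mTEC by 1.72 ± 0.28. The latter comparison lies within a kit, with 24.6 ± 3.14 CPM in cTEC and 7.47 ± 0.536 CPM in mTEC and no overlap of libraries (log2 fold change of mTEC over cTEC -1.72, adjusted p = 0.000763). Against the 1 read of skin, the ratio of levels was 20828 for colon (95% counting interval 3738 to 822692), 954 for cTEC (171 to 37689) and 288 for mTEC (51.4 to 11396). These intervals cover counting error only, and reads of amplified libraries are not independent molecules. Within colon, the 664, 435 and 563 CPM of Aqp4 in replicates 1 to 3 stood beside summed surface colonocyte markers of 3673, 1118 and 3130 CPM. All 7 of these markers were found and none was at 0 in colon. The order of the sums was that of Car1, with 2644, 540 and 1662 CPM, while the 6 others, such as Slc26a3 with 245, 143 and 372 CPM, were lowest in replicate 2 and highest in replicate 3. Their part in the result was not tested. Goblet cell markers had the reverse order, with 13466, 22521 and 17790 CPM.

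Aqp1, the water channel of red cells, capillaries and kidney tubules, was the second channel of colon and skin. It was level in colon, with 57.70, 53.48 and 54.71 TPM in replicates 1 to 3. Lung had 23.73, 55.25 and 44.76 TPM and skin 50.07, 25.97 and 24.09. In mTEC it reached 9.20, 2.97 and 4.81 TPM and in cTEC 0.93, 0.59 and 3.57. Every library of colon, lung and skin lay above every thymic library, whereas lung and skin overlapped, and so did mTEC and cTEC.

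In CPM, Aqp1 stood at 125 ± 9.02 in colon, 78.4 ± 28.3 in lung, 76.1 ± 42.0 in skin, 8.43 ± 4.48 in mTEC and 2.44 ± 2.06 in cTEC. The 3 highest groups did not pass the test against one another: lung over colon was -0.68 ± 0.47 (adjusted p = 0.238), colon over skin 0.72 ± 0.48 (adjusted p = 0.209) and lung over skin 0.05 ± 0.47 (adjusted p = 0.964). With the libraries of 1 kit alone, lung over colon passed at an adjusted p of 0.0308 with nearly the same log2 fold change, -0.68. Skin was above mTEC by 3.17 ± 0.53 on the log2 scale (adjusted p = 0.000155) and mTEC above cTEC by 1.80 ± 0.55 (adjusted p = 0.0281). The last call was lost without cTEC replicate 1 (adjusted p = 0.0925), without cTEC replicate 2 (0.108) and without mTEC replicate 1 (0.143).

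Markers of endothelium, which carries Aqp1, were also present. All 12 markers were found and none was at 0 in any group. In skin replicates 1 to 3 they summed to 550, 244 and 162 CPM beside 123, 61.1 and 43.6 CPM of Aqp1, and in lung to 299, 415 and 359 CPM beside 46.4, 100 and 88.5 CPM. In mTEC the sums were 51.4, 27.1 and 42.8 CPM beside 13.4, 4.63 and 7.29 CPM of Aqp1, and in cTEC 16.5, 17.7 and 28.5 CPM beside 1.38, 1.11 and 4.82 CPM. In these 4 groups the library with the highest endothelial sum had the most Aqp1, which did not hold for every single marker. Cd36 in lung had 182, 150 and 110 CPM and Tek in skin 23.5, 6.98 and 30.4 CPM, highest where Aqp1 was lowest. The part of endothelial markers in the result was not tested. Colon differed: its endothelial markers summed to 29.1, 16.3 and 68.1 CPM, against 16.5 to 51.4 CPM in the thymic libraries, while Aqp1 stood at 133, 115 and 128 CPM. Erythroid markers summed to 64.2 to 128 CPM in skin and at most 14.3 CPM in any other library, and their part in the result was not tested.

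**Figure D3:**
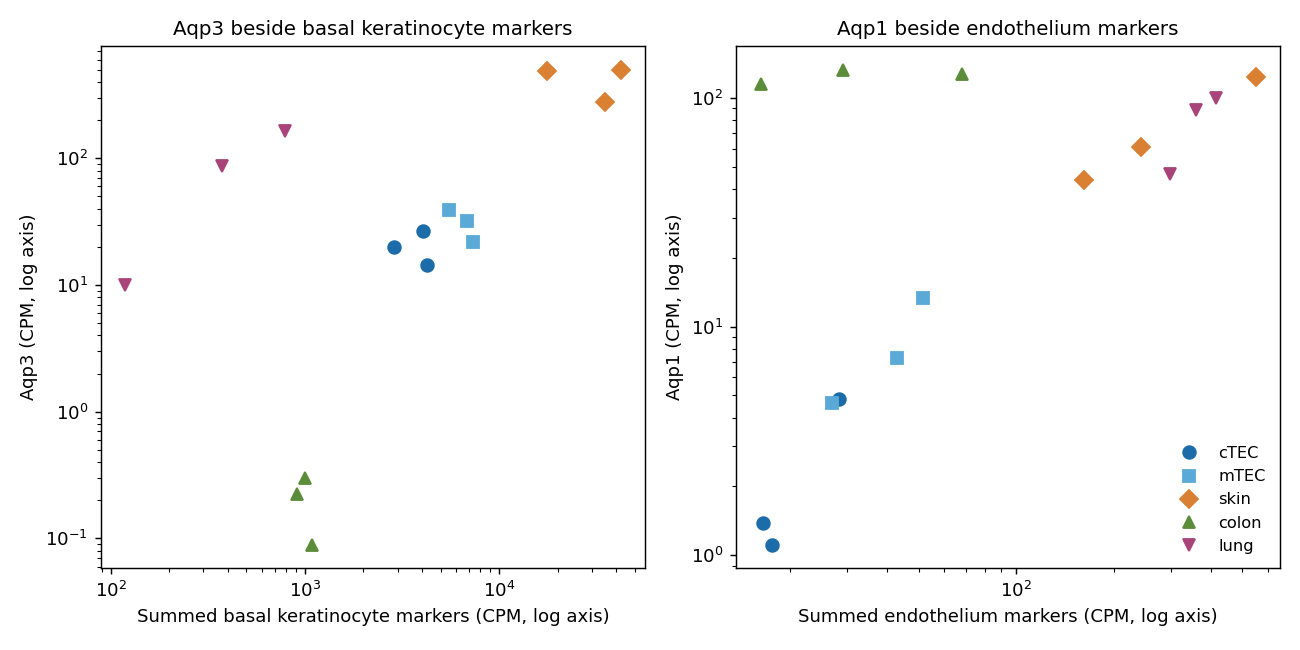
Left, Aqp3 against summed basal keratinocyte markers, and right, Aqp1 against summed endothelium markers, both in CPM on log axes, with 1 point per library. In lung, Aqp3 spans 10.1 to 164 CPM with the basal markers, and in colon, Aqp1 lies at 115 to 133 CPM at endothelial sums of 16.3 to 68.1 CPM.

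Aqp8, which conducts water and hydrogen peroxide, was found mainly in colon. Its levels there were 18.97, 10.89 and 26.22 TPM in replicates 1 to 3. In mTEC it reached 1.99, 0.45 and 1.80 TPM and in cTEC 1.01, 0.08 and 1.70. No read fell in Aqp8 in skin and 2 reads did in lung, both in replicate 3. All colon libraries were above all others, and the thymic groups overlapped.

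In CPM, Aqp8 stood at 23.8 ± 10.1 in colon and 1.10 ± 0.633 in mTEC, a log2 fold change of 4.42 ± 0.77 (adjusted p = 0.000268). Colon, with 1702 reads, was at least 292-fold higher than skin when skin is set at 3 reads over the group. Both thymic groups passed the test against skin as well, where 39 and 69 reads gave levels at least 8.79-fold higher in cTEC and at least 14.5-fold higher in mTEC. Over the 2 reads of lung, colon had a ratio of 1131 (95% counting interval 313 to 9349). In colon replicates 1 to 3 Aqp8 had 24.3, 13.5 and 33.6 CPM, the order of those 6 surface colonocyte markers, and their part in the result was not tested.

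Aqp11, the intracellular member, was highest in colon too. It reached 15.39, 11.10 and 14.07 TPM in colon replicates 1 to 3, a mean of 13.5 ± 2.2 TPM. The mean was 6.77 ± 1.85 TPM in cTEC, 3.52 ± 1.23 in mTEC, 0.58 ± 0.82 in skin and 0.40 ± 0.06 in lung. Colon libraries did not overlap with any other group, and skin overlapped with lung.

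Colon was above cTEC by 2.38 ± 0.50 on the log2 scale in Aqp11 (adjusted p = 0.000784), which was lost with limma on log2(TPM + 0.1) (1.01, adjusted p = 0.239), and mTEC above lung by 2.23 (lung over mTEC -2.23 ± 0.54, adjusted p = 0.00221). The neighbours cTEC and mTEC (mTEC over cTEC -0.66 ± 0.50, adjusted p = 0.364) and lung and skin (-0.06 ± 0.60, adjusted p = 0.964) did not pass. In TPM, Aqp11 was the third channel of cTEC. This rank depends on the length used. The merged exons of Aqp11 cover 9418 bases against 2599 for Aqp5, and per kilobase of merged exons Aqp11 was below Aqp5 in cTEC.

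Aqp3, the glycerol and water channel of basal keratinocytes and of many basolateral membranes, led the thymic groups and skin. Its levels in skin replicates 1 to 3 were 172.84, 326.00 and 423.11 TPM. In mTEC they were 42.43, 22.60 and 33.61 TPM, and in cTEC 33.12, 12.30 and 22.26. Lung ranged widely, with 159.31, 10.85 and 79.79 TPM, and colon had 0.03, 0.51 and 0.16. Skin was above every other library, colon below all, the thymic groups overlapped, and the lung libraries ran from below every thymic library to near the lowest of skin.

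In CPM, Aqp3 stood at 422 ± 124 in skin, 86.9 ± 76.9 in lung, 30.9 ± 8.90 in mTEC, 20.4 ± 6.28 in cTEC and 0.204 ± 0.106 in colon, the last from 16 reads. Skin was above mTEC by 3.77 ± 0.67 on the log2 scale (adjusted p = 0.000289) and above cTEC by 4.37 ± 0.69 (adjusted p = 0.000102), and without skin replicate 1 the values were 3.999 and 4.597. The thymic groups did not pass against each other (mTEC over cTEC 0.60 ± 0.62, adjusted p = 0.515), although each mTEC library was above the cTEC library of its number, with 39.4, 21.7 and 31.8 CPM against 26.8, 14.3 and 19.9 CPM. In a fit of these 6 libraries with the replicate number as a block, added after the data were seen because same-numbered cTEC and mTEC libraries deviated together, Aqp3 passed (0.56, adjusted p = 0.00844). It did not pass with the block over all 15 libraries (0.61, adjusted p = 0.499). That fit shares its estimate of spread among all groups, and why the 2 blocked fits differ was not tested. Without a block, the adjusted p was 0.201 when lung replicate 2 was left out and 0.233 with the libraries of 1 kit. Colon was below cTEC by 6.55 (colon over cTEC -6.55 ± 0.94, adjusted p = 2.68e-05) and below lung, within its kit, with 8.64 ± 0.96 for lung over colon (adjusted p = 2.33e-06). Skin was above lung, with -2.28 ± 0.63 for lung over skin (adjusted p = 0.00583).

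The lung libraries differed among themselves by 16.3-fold in Aqp3. Lung replicates 1 to 3 had 164, 10.1 and 87.0 CPM, and basal cell markers moved with it: Krt5 stood at 197, 8.04 and 88.3 CPM, Krt15 at 184, 10.8 and 97.5 CPM and Trp63, the regulator of basal cells, at 57.6, 4.69 and 20.9 CPM. Krt14 was the exception, with 28.2, 0.55 and 0.46 CPM. The 7 basal keratinocyte markers summed to 787, 119 and 372 CPM and the 7 airway markers to 7730, 3204 and 4699 CPM, with none at 0. Of the airway list, Foxj1 (157, 111 and 78.6 CPM) and Ccdc39 (53.1, 51.6 and 35.8 CPM) were instead lowest in replicate 3. In the groups that Aqp3 led, the basal sums had another order of libraries than Aqp3. In skin replicates 1 to 3 they were 35019, 42226 and 17696 CPM beside 278, 501 and 487 CPM of Aqp3. The sums were 5510, 7315 and 6854 CPM in mTEC, the reverse order of Aqp3, and 4066, 4258 and 2864 CPM in cTEC. The part of basal and airway markers in the result was not tested. Lung over mTEC (log2 fold change 1.49 ± 0.62, adjusted p = 0.0474) was lost when any of 11 libraries was left out, among them lung replicate 1 (0.66, adjusted p = 0.347), lung replicate 3 (adjusted p = 0.078), each cTEC and mTEC library and each colon library (adjusted p from 0.0514 to 0.144). Lung over cTEC (2.09 ± 0.63, adjusted p = 0.0106) was lost without lung replicate 1 (1.26, adjusted p = 0.0858).

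Foxj1 and Ccdc39 aside, the airway markers in lung had the order of Aqp3, and so did Aqp4 (74.3, 31.1 and 43.5 CPM). Aqp5 did not: its 1708, 1797 and 2002 CPM stood beside alveolar type 1 sums of 30771, 36065 and 35995 CPM.

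Aqp7, the channel through which fat cells release glycerol, was low everywhere. The highest library, skin replicate 1, had 1.93 TPM, and the other skin libraries 0.96 and 0.65. The mTEC libraries lay at 1.58 to 1.89 TPM, cTEC at 0 to 0.35, colon at 0 to 0.10 and lung at 0.02 to 0.06. Skin and mTEC thus overlapped, and both were above every library of the other groups.

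Skin over cTEC was 3.22 ± 0.92 on the log2 scale for Aqp7 (adjusted p = 0.008), from 96 and 17 reads, and was lost without skin replicate 1 (2.03, adjusted p = 0.0591). Skin over mTEC did not pass (0.998 ± 0.812, adjusted p = 0.31) and turned to -0.19 without that library. The 7 adipocyte markers summed to 253, 102 and 48.5 CPM in skin replicates 1 to 3 beside 5.93, 1.33 and 1.09 CPM of Aqp7, and nearly all of it was Fabp4 with 241, 94.5 and 47.3 CPM, while Adipoq, a defining marker, was at 0, 0.62 and 0 CPM. Their part in the result was not tested.

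Aqp9, the glycerol and urea channel of liver and neutrophils, was the least abundant member in lung, with 1 read over 3 libraries. It reached 0, 1.72 and 7.24 TPM in skin replicates 1 to 3, and the highest values elsewhere were 1.80 TPM in mTEC, 0.78 in colon and 0.29 in cTEC. The skin libraries therefore covered the whole range of the other groups. Skin over cTEC was 4.44 ± 1.29 on the log2 scale (adjusted p = 0.00887), from 187 and 11 reads, and was lost in the 3 limma fits on log2 TPM (1.30 to 2.35, adjusted p from 0.0507 to 0.105). Skin over mTEC did not pass (1.72 ± 1.08, adjusted p = 0.187) but did without skin replicate 1 (2.30, adjusted p = 0.0238). Against the single read of lung, the ratio was 484 for skin (95% counting interval 85.8 to 19209), 129 for mTEC (22.5 to 5160) and 99.7 for colon (17.4 to 3990). Myeloid and neutrophil markers summed to 53.6, 28.9 and 74.7 CPM in skin replicates 1 to 3, beside 0, 4.24 and 8.43 CPM of Aqp9. Of this list, S100a9 (0, 0.97 and 2.79 CPM), S100a8 (0, 0.09 and 0.91) and Csf3r (0.28, 0.35 and 1.40) had the order of Aqp9. Cxcr2, with 0, 0 and 3.64 CPM, was also highest in replicate 3. Lyz2, Csf1r, Adgre1, Mpeg1, Itgam and Cd68 were instead lowest in replicate 2. In mTEC the sums were 268, 136 and 235 CPM beside 2.46, 0.447 and 0.954 CPM of Aqp9. S100a8 stood at 41.9, 21.9 and 36.2 CPM in these mTEC libraries. The sums of 1766 to 3298 CPM in lung were mostly Lyz2 (1187 to 2805 CPM) and Csf1r (477 to 591 CPM), while the neutrophil marker S100a8 was at 0, 0.81 and 0.34 CPM there. Their part in the result was not tested.

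**Figure D4:**
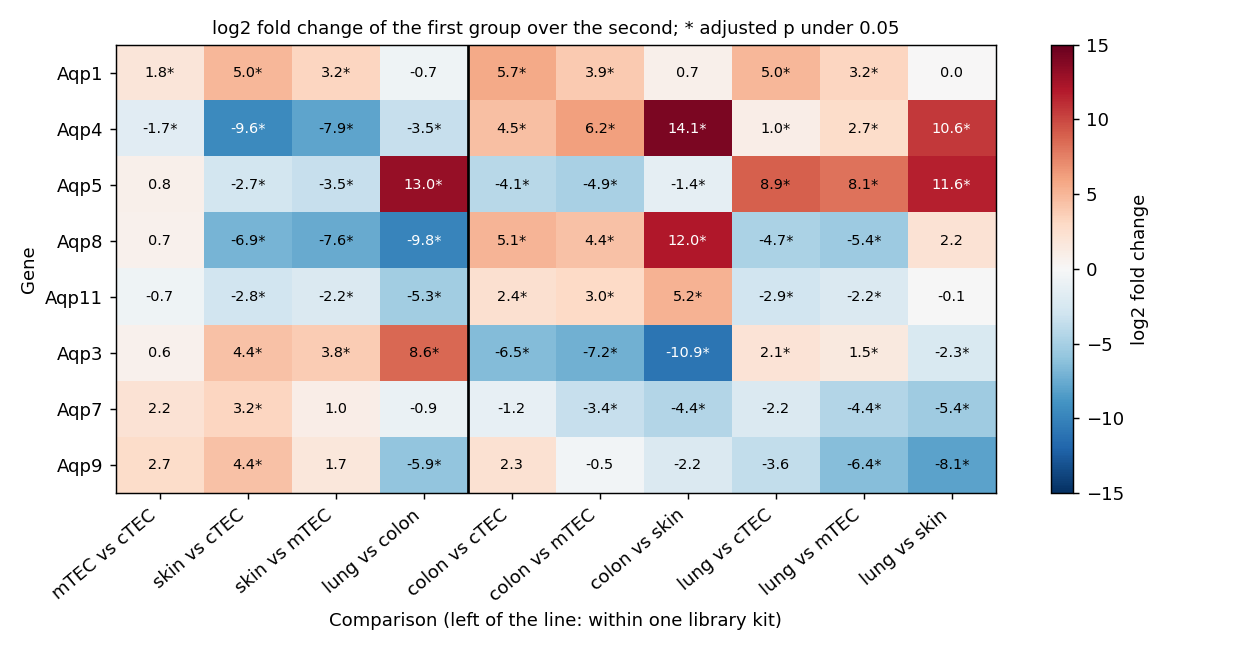
Fitted log2 fold change of each member (rows) in the 10 pairs of groups (columns), first group over second, with an asterisk where the adjusted p was under 0.05; the 4 pairs left of the line lie within a kit. Aqp5 in lung, Aqp4 and Aqp8 in colon and Aqp3 in skin give the darkest cells, and for genes with 0 to 3 reads in a group the fitted value is no measure of size.

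Pair by pair, the closest groups were mTEC and cTEC. There 2 of 8 members passed, against 24.7% of all genes. Aqp1 was higher in mTEC (background 15.2%) and Aqp4 lower (9.45%). With the replicate block on the 6 thymic libraries 3 of the 7 members left by the filter passed, Aqp3 being higher in mTEC as well (background 41.2%). The count was 1 without cTEC replicate 2 or mTEC replicate 1 and 5 without skin replicate 1, and in a test against a 2-fold change only Aqp4 passed (background 6.06%). Against cTEC, skin had 8 of 8 passing with a background of 56.4%, namely Aqp1, Aqp3, Aqp7 and Aqp9 higher (23.9%) and Aqp4, Aqp5, Aqp8 and Aqp11 lower (32.5%).

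Skin against mTEC gave 6 of 8 with a background of 57%, Aqp1 and Aqp3 being higher (22.4%) and Aqp4, Aqp5, Aqp8 and Aqp11 lower (34.6%). In lung against colon 6 of 8 passed with a background of 58.6%, Aqp3 and Aqp5 being higher in lung (30.4%) and Aqp4, Aqp8, Aqp9 and Aqp11 lower (28.3%). The median log2 fold change of the 8 members in these 4 pairs was 0.75, 0.25, -0.59 and -2.21, and that of all genes tested 0.07, -0.19, -0.22 and 0.00. With genes without reads set at their bounds, these medians did not move.

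Of the 6 pairs across kits, colon against cTEC had 6 of 8 members passing (background 65.1%), with Aqp1, Aqp4, Aqp8 and Aqp11 higher (30.5%) and Aqp3 and Aqp5 lower (34.6%). Against mTEC, colon had 7 of 8 (66%), the same 4 higher (29.1%) and Aqp3, Aqp5 and Aqp7 lower (36.9%). Colon against skin had 6 of 8 (58.2%), with Aqp4, Aqp8 and Aqp11 higher (30.8%) and Aqp3, Aqp5 and Aqp7 lower (27.4%).

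Lung against cTEC had 6 of 8 (59.5%), with Aqp1, Aqp3, Aqp4 and Aqp5 higher (28.6%) and Aqp8 and Aqp11 lower (30.9%). Against mTEC, all 8 passed in lung (63.6%), the same 4 higher (28.6%) and Aqp7, Aqp8, Aqp9 and Aqp11 lower (34.9%). Of these calls, that of Aqp3 (adjusted p = 0.0474) was lost in 22 of 28 alternatives, among them the DESeq2 test (0.0502). Lung against skin had 5 of 8 (60.4%), with Aqp4 and Aqp5 higher (33.7%) and Aqp3, Aqp7 and Aqp9 lower (26.7%). These pairs share groups with one another and with the pairs within a kit.

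Of the other aquaporin genes, Mip and Aqp6 were found mainly in mTEC, while Aqp2 and Aqp12 had few reads, which were spread over more groups. Mip, the main channel of lens fibres, had 130 reads over the 3 mTEC libraries, 2 in cTEC, 1 in colon and none in skin or lung. Aqp6, of acid-secreting kidney cells, had 136 reads in mTEC, 3 in cTEC, 7 in lung and none in skin or colon. Both passed in mTEC over cTEC, Mip at an adjusted p of 0.00209 and a ratio of 60.7 (95% counting interval 16.5 to 506) and Aqp6 at an adjusted p of 0.0044 and a ratio of 42.3 (14.2 to 208), in all 3 mTEC libraries. Aqp12, of pancreatic acinar cells, had 35 reads in mTEC and 22 in colon, and Aqp2, the vasopressin-regulated channel of the kidney collecting duct, 24 in mTEC, 16 in cTEC (all in replicate 3) and 13 in lung. These last genes did not pass the filter on low counts and were not tested. With them, reads fell in all 12 aquaporin genes in mTEC, at levels under 2 TPM on average for Mip, Aqp2, Aqp6 and Aqp12. In cTEC, Aqp12 was the only aquaporin gene without a read.

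For each member reaching 5 CPM in some group, the 3 genes with the most similar profile over the 15 libraries were found by the root-mean-square difference of centred log2 CPM. Aqp5 was nearest to Scgb1a1 (0.98), the secretoglobin of club cells, and Rtkn2 and Tmod1 came next. The nearest genes to Aqp3 included Susd2 (1.13) and Aldh3a1 (1.16). For Aqp4 the nearest were Slc44a4 (1.13), a choline transporter-like protein, Tfcp2l1 and Plch1, and for Aqp8 Cyp2d26 (0.62), Prss30 and Ceacam20. Aqp1 had Afap1l1 (0.67), Pof1b and Erbb3, and Aqp11 had Gsdme (0.58), a gasdermin, Scamp5 and Sec16b. Scgb1a1, Rtkn2 and Ceacam20 also stand in the airway, alveolar type 1 and surface colonocyte marker lists used here.

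Genes that work beside aquaporins differed among the groups about as often as genes at large, of which 90.6% passed. In the list of glycerol handling 14 of 14 genes passed the test over 5 groups, in osmotic and volume response 14 of 15, in epithelial salt transport 14 of 14 and in hydrogen peroxide production and removal 14 of 14. In lung against colon, 6 genes of glycerol handling were higher in lung and 4 lower, with a median log2 fold change of -0.04. For osmotic response 4 were higher and 9 lower (median -0.74), for salt transport 5 and 9 (median -2.22) and for hydrogen peroxide 3 and 7 (median -0.24), beside a median of 0.00 over all genes, of which 30.4% were higher and 28.3% lower. In mTEC against cTEC, 15.2% of all genes were higher and 9.45% lower, with a median of 0.07. There glycerol handling had 0 higher and 3 lower (median -0.28), osmotic response 2 and 2 (0.03), salt transport 5 and 4 (-0.29) and hydrogen peroxide 3 and 1 (0.17).

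In skin against cTEC, 4 genes of glycerol handling were higher and 6 lower (median -0.39), and 9 osmotic genes were higher and 5 lower (median 1.04). For salt transport 2 were higher and 10 lower (median -1.76), and for hydrogen peroxide 4 and 6 (median 0.04), beside a median of -0.19 over all genes, of which 23.9% were higher and 32.5% lower. Against mTEC, skin had 22.4% of all genes higher and 34.6% lower, with a median of -0.22. Glycerol handling had 7 higher and 5 lower (median 0.54), osmotic response 8 and 4 (0.58), salt transport 1 and 6 (-0.93) and hydrogen peroxide 4 and 6 (-0.27).

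The salt transporters with the smallest p were split between the colon and lung. Kcnn4, a potassium channel, stood at 88.6 ± 3.67 CPM in colon and at most 4.05 CPM in the mean of any other group, and Scnn1g, a subunit of the epithelial sodium channel, at 1245 ± 132 CPM in lung and at most 14.5 CPM elsewhere. Slc12a2, which carries sodium, potassium and chloride into cells, reached 1144 ± 94.0 CPM in colon and 221 ± 28.3 CPM in lung, and Wnk1, a kinase of the volume response, 1016 ± 71.8 CPM in lung and 223 ± 43.4 CPM in skin. In glycerol handling, Lpin2, a phosphatidate phosphatase, stood at 599.5 ± 6.15 CPM in lung and 58.5 ± 9.19 CPM in colon. Gpd1l, related to glycerol-3-phosphate dehydrogenase, reached 159 ± 9.66 CPM in colon and 89.6 ± 3.91 CPM in lung. Duox2, which makes hydrogen peroxide, stood at 94.4 ± 9.42 CPM in colon, where Aqp8 was highest, and at 2.96 ± 1.10 CPM in mTEC, the next group. Cat, the catalase that removes it, was highest in lung with 304 ± 42.1 CPM, against 106 ± 2.30 CPM in colon and 45.3 ± 2.64 CPM in cTEC.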

How the data were processed

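The deposited files hold, for each library, a table of read counts per gene (1 unstranded and 2 stranded columns) and a table of RSEM estimates, in which the authors give expected counts and TPM per gene, per the file headers. Per the submitters' processing notes, bcl2fastq 2.20, STAR 2.5.1b and RSEM 1.2.28 were used with GRCm38; which annotation was used is not given in those notes. Symbols and loci came from GENCODE M21, which holds 50376 of the 50600 identifiers.

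Sense counts were scaled with TMM and filtered with filterByExpr in edgeR 4.0.16 (R 4.3.3), which left 19107 genes, all 8 members among them. A fit with 1 term per group over 15 libraries was tested with the quasi-likelihood F-test. P-values were adjusted over all genes by Benjamini-Hochberg, with a threshold of 0.05. Standard errors were taken as the fitted log2 change over the square root of its F statistic. Reads outside single genes stayed out of library totals. Replicates differed by 22.7 to 213 in chi-square per degree of freedom, so none was a repeated library. A pairing of cTEC and mTEC by replicate number was inferred from these data. The deviations of same-numbered cTEC and mTEC libraries correlated at 0.156 to 0.29 in all 3 pairs. Among the 27 other same-numbered pairs 1 was over 0.1 (range -0.064 to 0.114). Fits were tested on simulated data. Expected counts (rounded), DESeq2 1.42.0 and limma 3.58.1 on log2 TPM were alternatives.

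The members, the other aquaporins, the pathway lists and the marker lists were chosen with earlier results of these data known. From each pathway list the 2 genes with the smallest p over 5 groups were named. A gene that the rule for similar profiles names is not reported here. Krt5 and Krt14 stand in 2 marker lists, and Slc26a3 in a pathway and a marker list. Pore boxes were found in the coding frame of the principal transcript by their codons and a glycine codon 4 codons before. Ratios of 1 to 3 reads have exact conditional 95% intervals.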

Additional observations from a re-analysis of the deposited data

Results flagged for a closer look

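Aqp7 had reads on the strand opposite to the gene, outside the counts that were compared. Opposite-strand reads exceeded sense reads in cTEC (32 against 17 over 3 libraries), in colon (21 against 9) and in lung (31 against 6), and not in mTEC (5 against 86) or skin (27 against 96). For every other member with at least 20 sense reads in a group, sense reads were the majority. No gene of GENCODE M21 overlaps Aqp7 on the other strand. These values are what drew attention, and their source was not tested.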

How the results depend on the processing

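Of the 60 called member differences between pairs, 47 kept their call under all alternatives run, and none reversed. The count in mTEC against cTEC went from 2 to 1 with a test against a 2-fold change or with the libraries of 1 kit, to 4 with limma on log2(TPM + 1), and to 1 to 5 when single libraries were left out. In lung against cTEC it went from 6 to 3 with limma on log2(TPM + 1), with or without a filter. Per kilobase of merged exons, the leading share in mTEC was 59.8% and that of glycerol channels 62.4%. Aqp7 in skin against mTEC (0.998, not called) turned to -0.35 with limma on log2(TPM + 1), with or without a filter, to -0.61 on log2(TPM + 0.1), and ran from -0.19 (without skin replicate 1) to 1.35 when single libraries were left out. The cause was not tested.

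A replicate block over all libraries left all 8 members differing among the groups and lost 2 calls, Aqp5 in colon against skin (-1.38, adjusted p = 0.0601) and Aqp3 in lung against mTEC (1.27, adjusted p = 0.0834). With the block on the cTEC and mTEC libraries alone, chosen after seeing the data, Aqp3 in mTEC against cTEC gained a call (0.56, adjusted p = 0.00844), no call of that pair was lost and Aqp9 gave no value. At least 1 of the 3 limma fits on log2 TPM also lost Aqp8 in skin and in lung against cTEC and Aqp9 in lung against colon, mTEC and skin (adjusted p from 0.0596 to 0.765). With unstranded counts Mip was filtered out and gave no value. Depth limits Aqp7, Aqp8 and Aqp9 most, with under 20 reads in 2 or more groups each.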
